A study of Mus musculus with 6 samples.

Results

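Ribosome biogenesis was described through 46 mouse genes chosen by symbol, of which 45 had a row among the 25965 rows of the deposited count table. The set held 4 RNA polymerase I subunits, 6 abundant nucleolar proteins, 6 core proteins of small nucleolar ribonucleoproteins (snoRNPs), 16 factors of the small ribosomal subunit, 11 of the large subunit, and the polyamine enzymes Odc1 and Srm. Noc2l was also listed and is not analysed here. All 45 genes passed the filter on low counts, beside 10896 rows that passed in all. RNA had been sequenced from 6 mouse cell lines that all carried BCR-ABL, the fusion kinase of Philadelphia chromosome positive leukemia. The 3 lines labelled Cdk6 wild type (WT1 to WT3) had been electroporated with the control plasmid pSpCas9(BB)-2A-GFP(px458), which expresses Cas9 and GFP, and the 3 lines labelled Cdk6 knockout (KO1 to KO3) with its version hCDK6del, which also carried guides against CDK6, the cyclin D-dependent kinase of early cell cycle. GFP-positive cells were sorted and plated as single cells, so a line stands for 1 clone, and loss of CDK6 protein had been checked by Western blot, per the labels. Nothing in the labels says that the lines came from separate animals or cultures, so p-values measure the spread between these 6 lines, and the question was how the transcriptome differs with CDK6.

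Ribosomes are assembled mainly in the nucleolus. RNA polymerase I transcribes the long ribosomal RNA precursor, snoRNPs guide its chemical modification, and many assembly factors fold, cut and package it into the small and large subunits before export to the cytoplasm. Many genes of this programme are known targets of MYC, and the programme runs high in growing cells, including leukemia cells of the B lineage.

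The Cdk6 transcript itself was not lower in the lines labelled KO. Levels are given as CPM, read counts scaled by the library total, always in the order WT1, WT2, WT3 and KO1, KO2, KO3. Cdk6 lay at 39.4, 44.96 and 55.8 CPM in WT and at 42.1, 72.6 and 40.4 CPM in KO. The edgeR log2 fold change (KO minus WT) was 0.14 with an SE of 0.29, a 95% interval from -0.59 to 0.87 and an adjusted p of 0.90, and it was -0.22 without KO2. An exact permutation test of log2 CPM, two-sided, gave p = 0.8, and 3 against 3 libraries allow no p below 0.1. A count over the whole gene does not show a small deletion, so WT and KO name the libraries as labelled, also wherever a direction is given. Total counts ran from 17859519 to 24108563, so 3 counts were worth 0.124 to 0.168 CPM, far under every gene of the set. KO2 stood apart from the other 5 libraries across the genome, and results that rest on it are given with and without it. All 8 B-lineage markers had counts, with a summed level of 4172 to 4232 CPM in WT and 3334 to 4793 CPM in KO. Of the T-lineage markers Cd3e, Cd4 and Cd8a were at 0 throughout, and the sum ran from 64.4 to 66.5 CPM in WT and from 0.397 to 81.9 CPM in KO. Myeloid markers summed to 28.8 to 45.3 CPM in WT and 16.0 to 43.4 CPM in KO with Elane and Adgre1 at 0, erythroid markers to at most 6.94 CPM, and 4 of 6 fibroblast markers were at 0. Their part in the results was not tested.

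Across the whole set the transcripts lay slightly lower in KO, by amounts that no gene carried past the test. The log2 fold change (KO minus WT) was negative in 36 of 45 genes (80%), against 47.2% of all genes tested, and its median was -0.079 against 0.015. The extremes were -0.41 for Nop16 and 0.27 for Nop2. With edgeR's quasi-likelihood test 0 of the 45 genes had an adjusted p under 0.05, where 0% of all tested genes did, and the smallest adjusted p of the set was 0.492. At an unadjusted p under 0.05, 6 genes were lower (Ncl, Nolc1, Mybbp1a, Nop58, Rrp9 and Ltv1) against a background of 5.1% of tested genes, and 0 were higher against 4.35%. limma-voom gave the same 6 at that threshold. With the replicate number as a block, 1 of them was left, Mybbp1a (background 4.68%). Leaving out WT3 left 0 (background 1.98%), and leaving out WT1 or WT2 left 3 each (2.39% and 2.78%). DESeq2 called 1 gene lower, Nolc1, against a background of 1.24%, and 0 higher against 0.705%.

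In 11 of the 45 genes (24.4%) all 3 KO lines lay below all 3 WT lines, where 8.68% of tested genes did so. These were Ncl, Nolc1, Mybbp1a, Fbl, Nop58, Dkc1, Rrp9, Ltv1, Pes1, Rrs1 and Nop16. The reverse held for 1 gene, Rrp1b, where 10.6% of tested genes lay above. Scaling moved these counts little for the lower side and ended the other: on CPM scaled by TMM they were 12 below (background 11%) and 0 above (8.58%). The set took 1.49%, 1.47% and 1.49% of all counts in the WT lines and 1.39%, 1.41% and 1.39% in the KO lines. Those shares did not overlap, and Ncl alone made up 26.8% to 29.8% of them. On the log2 CPM scale, relative to the WT mean of each gene, the set had medians of -0.03, 0.02 and 0.01 in WT. In the KO lines they were -0.09, -0.04 and -0.08. The medians of all tested genes were -0.00, -0.01 and 0.01, then 0.04, -0.05 and 0.06. The set's median thus lay under that of all tested genes in KO1 and KO3, and not in KO2. In bulk RNA, fewer cells with a transcript and less transcript per cell cannot be told apart.

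**Figure D1:**
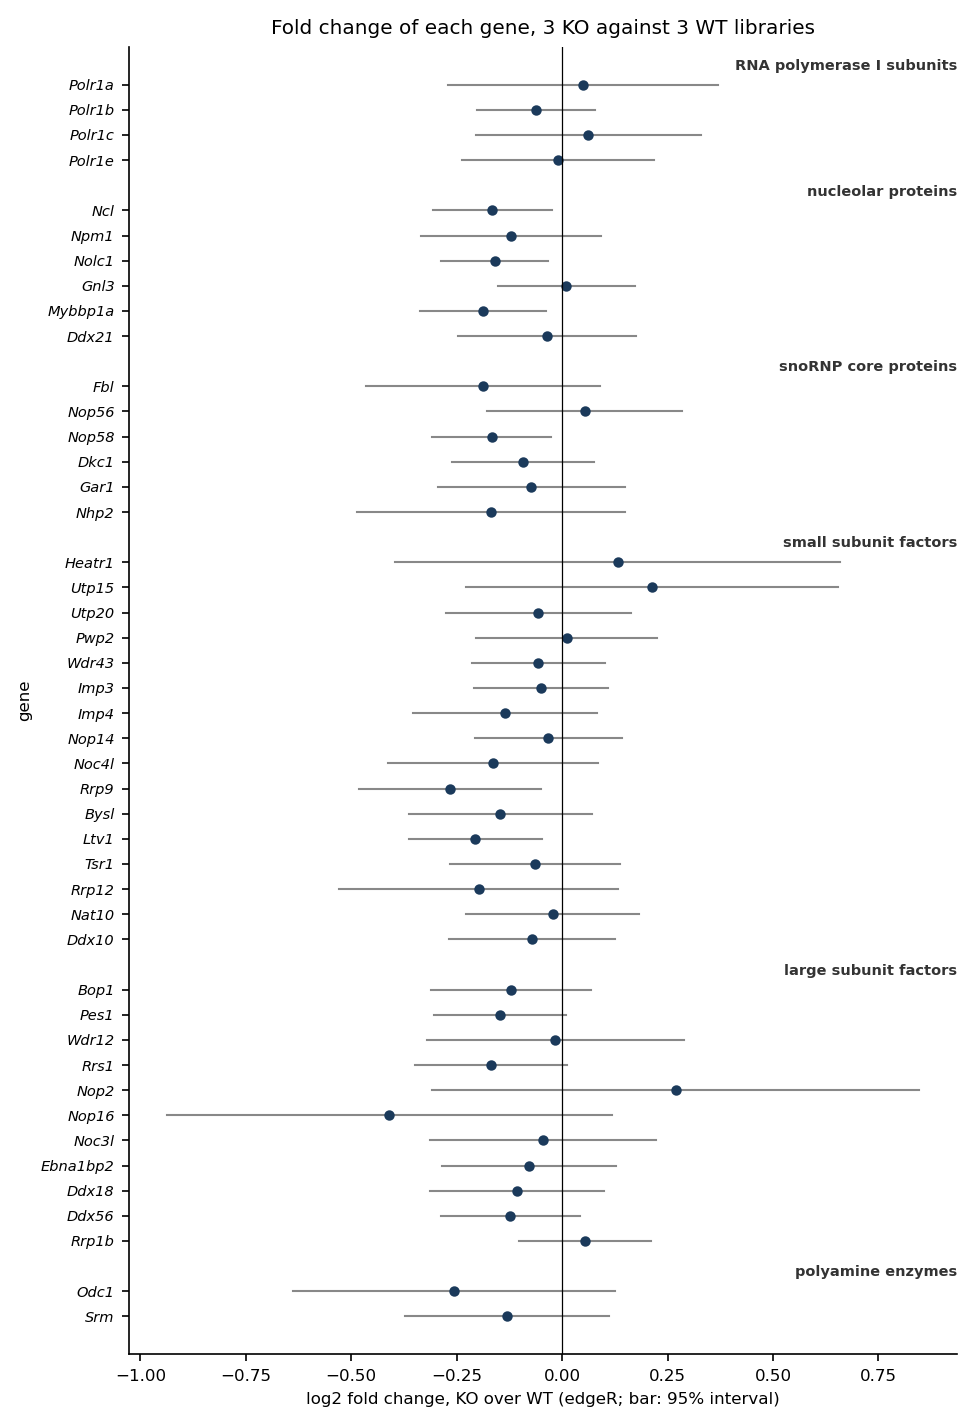
Log2 fold change (KO minus WT, edgeR) of the 45 genes with 95% intervals, ordered within their roles. Values are negative for 36 genes and run from -0.41 (Nop16) to 0.27 (Nop2).

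The spread between lines was small for these genes, which sets what could be seen. The median coefficient of variation was 4.10% among WT and 5.47% among KO lines, against 7.42% and 17.0% over all tested genes. Many tested genes have lower counts than any of the set, and this background was not matched for level. The smaller spread is therefore not shown to be particular to these genes. Standard errors of the log2 fold change ran from 0.051 to 0.23, and the 95% interval reached a median of 0.21 to either side of the estimate. A median change of the size seen here was therefore inside the interval of a typical gene of the set.

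Promoter sequences were examined because most of the set had the same sign and because many of these genes are textbook MYC targets. RefSeq promoters (GRCm38.p6, 250 bases before to 50 after the start) were matched for 39 of the 45 genes, in 42 windows, with no entry for Bop1, Fbl, Npm1, Rrp12, Rrs1 and Srm. The E-box CACGTG, which MYC and MAX can bind and which reads alike on both strands, stood in 8 windows (19.0%), against 7.15% of all 32851 promoters and 10.4% of those of tested genes. All 8 stretches follow, 5′ to 3′ in the direction of transcription, with the E-box in capitals.
Ltv1 (chr10:13193094-13193119, minus strand): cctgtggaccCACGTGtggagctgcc
Mybbp1a (chr11:72441357-72441376, plus strand): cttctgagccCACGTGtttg
Pes1 (chr11:3963967-3963992, plus strand): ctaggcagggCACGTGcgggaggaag
Tsr1 (chr11:74898094-74898119, plus strand): acttggtgcaCACGTGgactgcagaa
Utp20 (chr10:88826765-88826787, minus strand): gcactaactaCACGTGaggaaaa
Wdr43 (chr17:71616222-71616247, plus strand): cccgggcgaaCACGTGgctgccgcgg
Imp4 (chr1:34439698-34439723, plus strand): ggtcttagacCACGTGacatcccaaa
Nop2 (chr6:125131813-125131838, plus strand): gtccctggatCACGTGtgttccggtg
The E-box of the first 6 lies in the first 50 bases from the start, and that of the other pair upstream of it. In that 50-base window, chosen after the matches had been seen, 14.3% of the set's promoters held the E-box against 1.66% of those of tested genes, while in the 250 upstream bases it was 4.76% against 8.64%. Ltv1, Mybbp1a and Pes1 were among the 11 genes with all KO lines below all WT lines. Tsr1, Utp20, Wdr43, Imp4 and Nop2 were not. Of the 11, 9 had a promoter entry, and 33.3% of these 9 held the E-box. That compares with 19.0% of the set's windows and 10.4% of those of tested genes. The part of MYC in these values was not tested. A match is a stretch of letters and not a measured binding site.

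Other motifs were searched on both strands in the same windows. The ETS-type motif CCGGAAGT stood in 21.4% of the set's windows, against 3.89% of all promoters and 8.53% of those of tested genes. The CCAAT box stood in 33.3%, against 37.4% and 38.7%, and the NRF1 palindrome in 0, against 0.971% and 2.31%. Matches of different motifs were counted separately. The upstream stretch of Ltv1 is shown because it holds the ETS-type motif once on each strand, in capitals, and that of Nop2 because it holds the upstream E-box of the gene with the highest fold change of the set.
Ltv1 (chr10:13193138-13193257, minus strand): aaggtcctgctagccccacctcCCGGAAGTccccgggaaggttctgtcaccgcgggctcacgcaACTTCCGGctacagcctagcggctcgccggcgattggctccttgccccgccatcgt
Nop2 (chr6:125131763-125131882, plus strand): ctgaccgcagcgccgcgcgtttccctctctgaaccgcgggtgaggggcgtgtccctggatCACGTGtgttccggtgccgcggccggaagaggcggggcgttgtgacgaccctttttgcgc
Ltv1 was lower in all 3 KO lines, and Nop2 was high in KO2 alone.

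The RNA polymerase I subunits overlapped between the groups in all 4 genes. Here and below, values in parentheses after the levels are log2 fold changes (KO minus WT) ± SE from edgeR, with its adjusted p. Polr1a, the largest catalytic subunit, lay at 176, 194 and 177 CPM in WT and 170, 218 and 184 CPM in KO. Polr1b, the other large catalytic subunit, lay at 149, 146 and 151 CPM in WT and 141, 144 and 149 CPM in KO, a log2 fold change of -0.06 ± 0.06 (edgeR adjusted p = 0.755). Polr1c, an assembly subunit shared with RNA polymerase III, lay at 56.0, 64.1 and 60.7 CPM in WT and 57.5, 61.5 and 72.5 CPM in KO (0.06 ± 0.11, adjusted p = 0.877). Polr1e, a peripheral subunit, stayed between 45.8 and 50.4 CPM in the 6 lines. The median log2 fold change of the 4 was 0.020, and it was -0.078 without KO2 and -0.010 without WT1. Polr1a had 0.049 with KO2 and -0.087 without it.

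Of the nucleolar proteins 5 of 6 had negative values, and 3 of the 6 had KO lines wholly below WT lines (50%, background 8.68%). Nucleolin (Ncl, chromosome 1, 86344719 to 86359400, minus strand), which binds ribosomal RNA and chromatin at the ribosomal DNA, was the most highly counted gene of the set. It lay at 4457, 4058 and 4269 CPM in WT and 3918, 3769 and 3875 CPM in KO, a log2 fold change of -0.17 ± 0.06 (edgeR adjusted p = 0.497). Every KO line was thus below the lowest WT line, by a margin smaller than the range among the WT lines. Nolc1, a phosphoprotein that binds snoRNPs (chromosome 19, 46075863 to 46085530, plus strand), lay at 631, 646 and 648 CPM in WT and 582, 572 and 595 CPM in KO. Its log2 fold change was -0.16 ± 0.05 with edgeR (adjusted p = 0.495) and -0.15 ± 0.04 with DESeq2 (adjusted p = 0.0306). The gap between its groups was wider than the range of the WT lines.

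Mybbp1a, which represses ribosomal DNA transcription and takes part in precursor processing (chromosome 11, 72441355 to 72451768, plus strand), lay at 1128, 1143 and 1129 CPM in WT and 1059, 990 and 978 CPM in KO (-0.19 ± 0.06, edgeR adjusted p = 0.495). As for Nolc1, the gap between the groups exceeded the WT range. Nucleophosmin (Npm1), a nucleolar chaperone of histones and ribosome assembly, lay at 1153, 958 and 1094 CPM in WT and 1023, 900 and 1071 CPM in KO, with the lowest value of either group in the line numbered 2. Gnl3, the GTPase nucleostemin, lay at 265, 266 and 268 CPM in WT and 262, 280 and 272 CPM in KO, and was the flattest gene of the set among WT lines. Ddx21, an RNA helicase, overlapped between groups at 765 to 864 CPM because KO2 was its highest library.

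**Figure D2:**
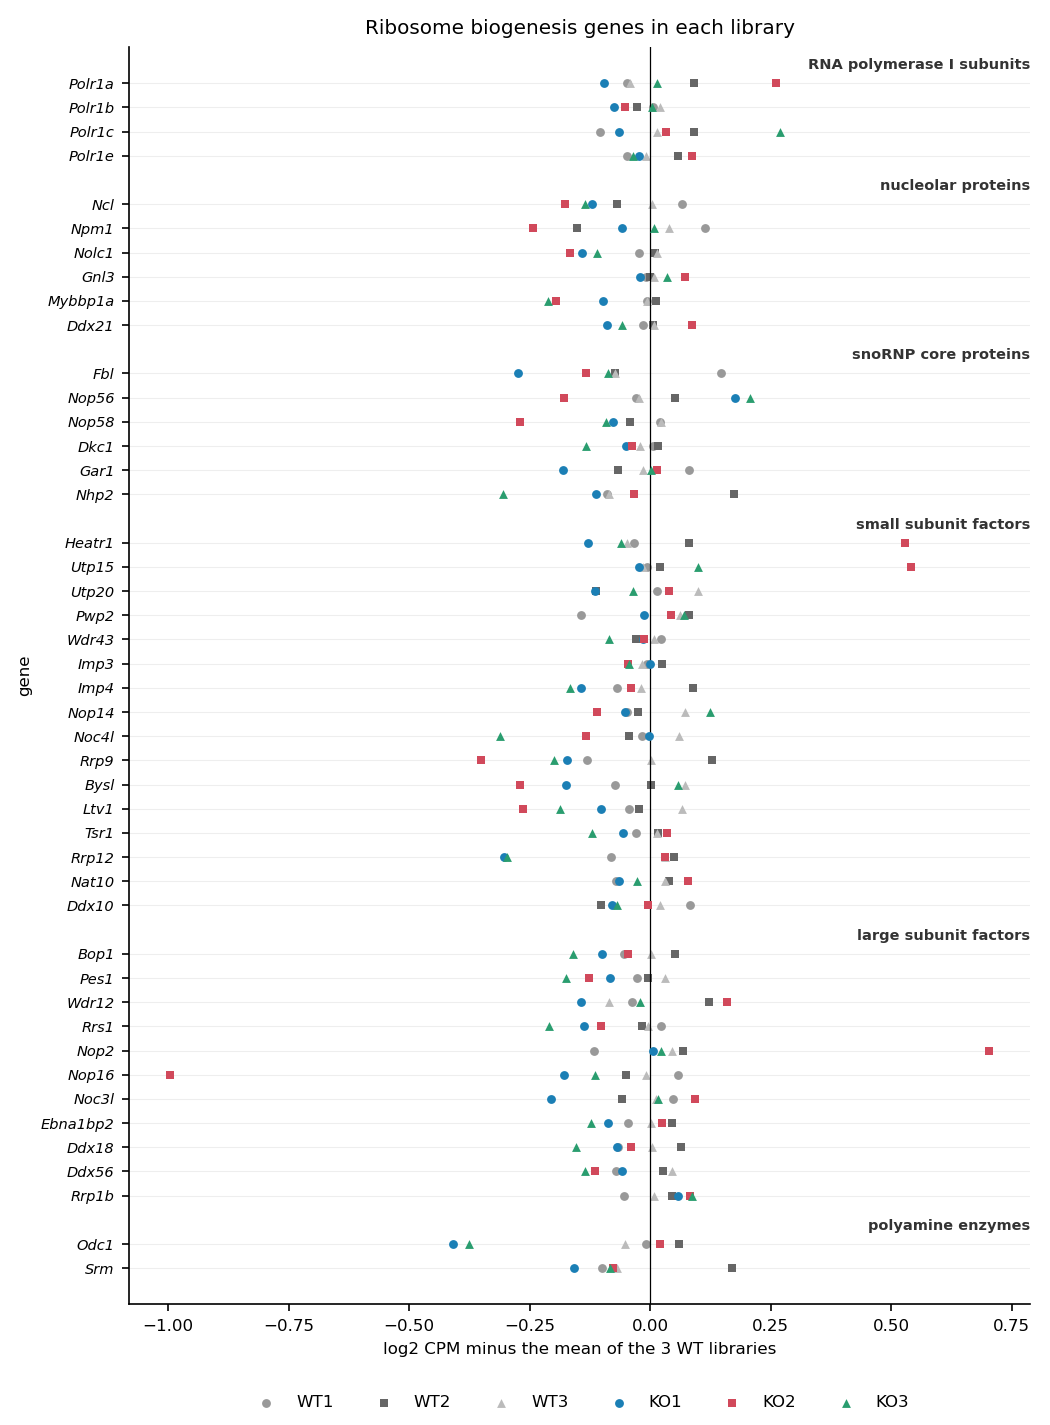
Log2 CPM of each of the 45 genes in the 6 libraries relative to the mean of the WT lines. Most values lie within 0.3 of 0, and the values furthest out are those of Nop16, Nop2, Utp15 and Heatr1 in KO2 and of Odc1 in KO1 and KO3.

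Among the snoRNP core proteins the C/D box members were lower in all KO lines except Nop56. Fibrillarin (Fbl), the methyltransferase of C/D box snoRNPs, lay at 37.3, 32.1 and 32.1 CPM in WT and 27.9, 30.7 and 31.7 CPM in KO (-0.19 ± 0.11, edgeR adjusted p = 0.632). Its highest KO line lay less than 1 CPM under its lowest WT lines. Nop58, a scaffold of the same particle, lay at 487, 467 and 488 CPM in WT and 455, 398 and 451 CPM in KO (-0.17 ± 0.06, edgeR adjusted p = 0.497). Nop56, its partner, lay at 287, 303 and 288 CPM in WT and 331, 259 and 338 CPM in KO (0.05 ± 0.09). KO1 and KO3 were its highest libraries and KO2 its lowest, so the 2 scaffold proteins did not move alike in KO1 and KO3. Dkc1, the pseudouridine synthase of H/ACA snoRNPs, lay at 324, 327 and 318 CPM in WT and 312, 315 and 295 CPM in KO, without overlap but with a log2 fold change of -0.09 ± 0.07. Its partners Gar1 and Nhp2 overlapped between groups.

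Of the 16 small subunit factors 13 had negative values and 2 had KO lines wholly below WT lines (12.5%, background 8.68%). Rrp9, a protein of the snoRNP that primes early cleavages, lay at 106, 127 and 117 CPM in WT and 103, 91.2 and 101 CPM in KO (-0.27 ± 0.09, edgeR adjusted p = 0.495). Ltv1, which helps late small subunits leave the nucleus, lay at 117, 118 and 126 CPM in WT and 112, 100 and 106 CPM in KO (-0.21 ± 0.06, adjusted p = 0.492). Both had KO2 as their lowest library and KO1 next to the WT lines. Wdr43, of the complex that couples transcription and early processing and the most abundant of these genes per transcript length, lay at 382, 368 and 378 CPM in WT and 372, 373 and 354 CPM in KO (-0.06 ± 0.06). Utp15, of the same complex, lay at 97.2, 99.1 and 96.7 CPM in WT and 96.1, 142 and 105 CPM in KO (0.21 ± 0.18, adjusted p = 0.727). Its mean difference came from KO2, and it was -0.0055 without it. Rrp12, an export factor, lay at 127, 139 and 137 CPM in WT and 109, 137 and 109 CPM in KO, so KO1 and KO3 were low and KO2 was level with WT. The remaining 11 genes of this role overlapped between groups, with log2 fold changes from -0.16 (Noc4l) to 0.13 (Heatr1). Heatr1 had -0.14 without KO2, and Pwp2 turned from 0.010 to -0.018.

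Of the 11 large subunit factors 9 had negative values. Bop1 and Pes1, which with Wdr12 form the complex needed to process the large subunit precursor, were close in size of difference. Bop1 lay at 273, 294 and 284 CPM in WT and 265, 275 and 254 CPM in KO (-0.12 ± 0.08, edgeR adjusted p = 0.641), with KO2 inside the WT range. Pes1 lay at 197, 200 and 205 CPM in WT and 190, 184 and 178 CPM in KO (-0.15 ± 0.06, adjusted p = 0.534), without overlap. Wdr12 had a log2 fold change of -0.016 ± 0.12, and without KO2 it had -0.13, beside -0.18 for Bop1 and -0.17 for Pes1. Rrs1, which helps to dock a ribosomal RNA particle on the subunit, lay at 122, 119 and 120 CPM in WT and 109, 112 and 104 CPM in KO (-0.17 ± 0.07, adjusted p = 0.534). Rrp1b, a nucleolar partner of protein phosphatase, was the only gene above in all KO lines, at 137, 146 and 143 CPM in WT and 148, 150 and 151 CPM in KO (0.05 ± 0.06), and on CPM scaled by TMM its groups overlapped.

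The largest differences of the set in either direction both belonged to large subunit factors and both came from KO2. Nop2, a methyltransferase of ribosomal RNA, lay at 212, 241 and 237 CPM in WT and 231, 374 and 233 CPM in KO (0.27 ± 0.23, edgeR adjusted p = 0.739). Nop16 lay at 116, 108 and 111 CPM in WT and 98.5, 55.9 and 103 CPM in KO (-0.41 ± 0.21, adjusted p = 0.587). Nop2 was the only gene of the set with KO2 over 1.5-fold above the highest of the other 5 libraries (6.43% of tested genes) and Nop16 the only one over 1.5-fold below the lowest (10.8%). Without KO2 the log2 fold change of Nop2 was -0.033 and that of Nop16 -0.19, with KO1 and KO3 of Nop16 still under all WT lines.

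The polyamine enzymes are not ribosome factors but are known MYC targets that supply polyamines to growing cells. Odc1, ornithine decarboxylase and the rate-limiting step of the pathway (chromosome 12, 17544794 to 17551505, plus strand), lay at 171, 179 and 166 CPM in WT and 129, 174 and 132 CPM in KO (-0.26 ± 0.15, edgeR adjusted p = 0.632). KO1 and KO3 were clearly low and KO2 was level with the WT lines. Srm, spermidine synthase, lay at 324, 391 and 332 CPM in WT and 312, 330 and 328 CPM in KO (-0.13 ± 0.10, adjusted p = 0.693). WT2 was high for Srm, whose log2 fold change was -0.034 without that line, and KO2 and KO3 fell between the other WT lines.

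Leaving KO2 aside can only add genes to those wholly below or wholly above, in the set as among all tested genes. In 21 of the 45 genes both KO1 and KO3 lay below all WT lines, against 16% of tested genes, and in 2 (Nop56 and Rrp1b) both lay above, against 26.6%. In 10 of the 21, KO2 did not lie below all WT lines: Ddx21, Nhp2, Heatr1, Imp4, Tsr1, Rrp12, Bop1, Ebna1bp2, Ddx18 and Odc1. KO2 was the highest of the 6 libraries in 11 genes (26.3% of tested genes) and the lowest in 11 (39.2%). Without KO2 the set's median log2 fold change was -0.13, 42 genes were negative, and 14 were lower and 1 higher (Nop56) at an unadjusted p under 0.05 (9.72% and 9.12% of tested genes), yet edgeR still called 0 genes past the adjusted threshold. DESeq2 without KO2 called 4 genes of the set lower, against a background of 3.68%. These were Odc1 (-0.44 ± 0.08, DESeq2 adjusted p = 8.91e-06, edgeR 0.178), Rrp12 (-0.35 ± 0.09, adjusted p = 0.00325, edgeR 0.190), Nolc1 (-0.17 ± 0.05, adjusted p = 0.0109) and Mybbp1a (-0.20 ± 0.06, adjusted p = 0.0375). With WT2 left out as well, DESeq2 called Odc1 alone (-0.40 ± 0.09, adjusted p = 0.00126; background 1.72%).

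The genes that KO2 set apart were then compared with their neighbours on the chromosome, using the log2 ratio of a library to the mean of WT1 and WT3 with an offset of 0.5 CPM, over genes of at least 5 mean CPM within 2 Mb (GRCm38). In KO2, 6 of the 45 genes (13.3%) had a ratio of at least 0.3 in size (Heatr1, Nop16, Nop2, Npm1, Polr1a and Utp15), against 47.1% of 8412 placed genes and 40.2% of those at least as high as the lowest gene of the set. In KO1 there were 2 (Fbl and Odc1, background 17.2%), in KO3 there were 3 (Noc4l, Odc1 and Polr1c, background 27.8%) and in WT2 there were 0. For Nop2 (chromosome 6, 125131909 to 125144753, plus strand) the ratio was 0.73 in KO2, and 26 of its 28 neighbours were also up, with a median of 0.53. For Utp15 (chromosome 13, 98246845 to 98263041, minus strand) it was 0.55, and 18 of 19 neighbours were up with a median of 0.70. The medians of the nearby genes thus differed in the same direction as both genes and by a similar amount. Single neighbours ran from -3.50 to 1.85 around Nop2 and from -0.16 to 1.65 around Utp15. The share of all placed genes that were up in KO2 was not counted.

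Around Nop16 and Heatr1, both on chromosome 13, neighbours in KO2 lay on both sides of 0. Nop16 (54584185 to 54590090, minus strand) had a ratio of -1.02, and of its 34 neighbours within 2 Mb 19 were down and 15 up, with a median of -0.53. Of the 28 genes from 4.93 Mb before it to 0.785 Mb after it, 26 were down with a median of -0.85, and of the 21 genes from 0.861 to 4.86 Mb after it 20 were up with a median of 0.69. Heatr1, a large scaffold of the small subunit precursor (12395027 to 12440289, plus strand), lay at 272, 295 and 270 CPM in WT and 255, 402 and 267 CPM in KO, a ratio of 0.57 in KO2. Its 12 neighbours within 2 Mb were 6 up and 6 down, with a median of -0.06, so that window as a whole did not share its direction. Of the 11 genes from 3.59 Mb before it to 0.963 Mb after it 10 were up in KO2 with a median of 0.46, whereas all 9 from 1.20 Mb onward were down with a median of -0.98. The edges of these stretches were chosen after the values had been seen, so they describe these genes and no test was made. In KO1 and KO3 the medians of the same 4 stretches lay between -0.06 and 0.14.

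**Figure D3:**
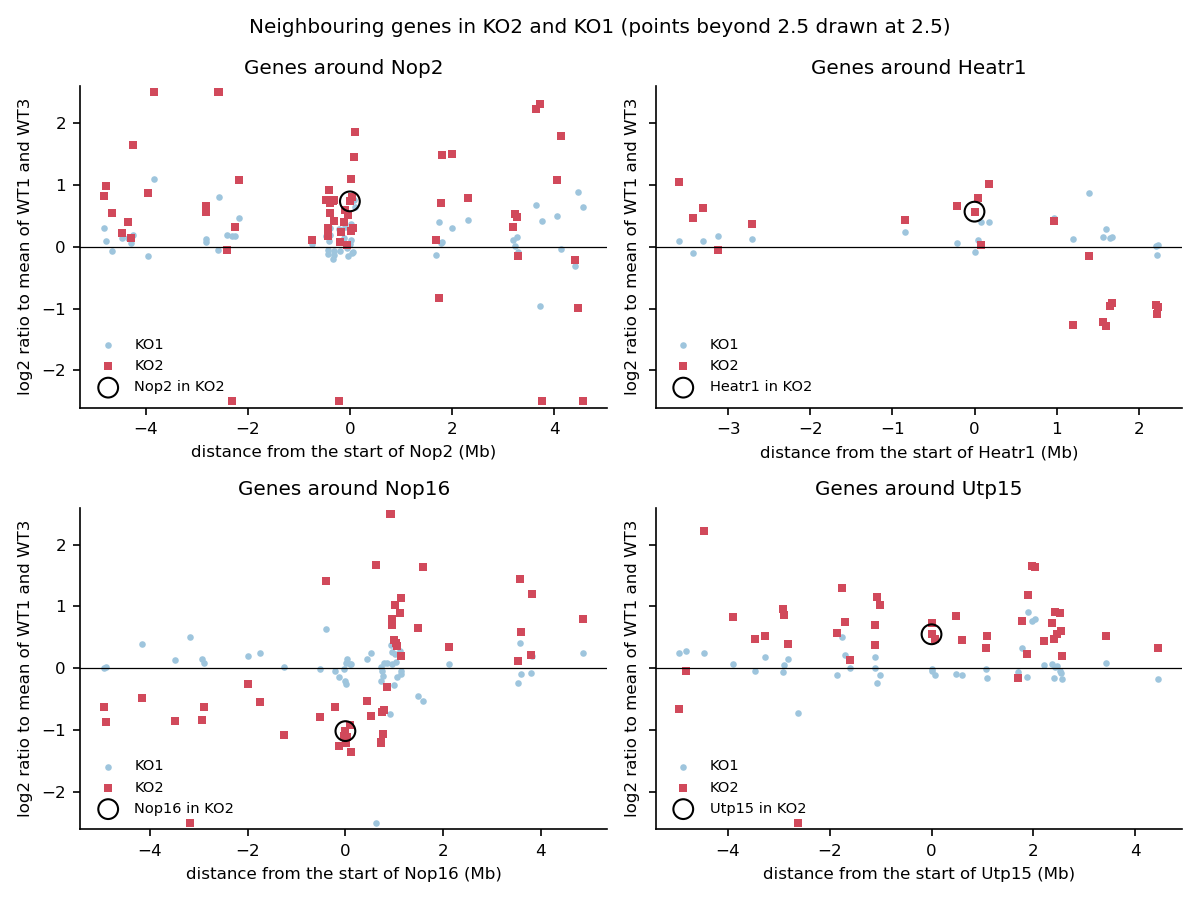
Log2 ratio to the mean of WT1 and WT3 for genes around Nop2, Utp15, Nop16 and Heatr1, by distance in Mb, in KO1 and KO2. Values too large for the axis are drawn near its edge. In KO2 the genes near Nop2 and Utp15 lie mostly above 0, and near Nop16 and Heatr1 the values change side within about 1 Mb of the gene.

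Not every gene followed its neighbours. Npm1 (chromosome 11) had a ratio of -0.32 in KO2 beside a median of -0.46 over 11 neighbours, whereas Polr1a (chromosome 6) had 0.30 beside -0.04 over 24, as Heatr1 also differed from its median. Odc1 had ratios of -0.38, 0.05 and -0.34 in KO1, KO2 and KO3, and the medians of its 5 neighbours were -0.19, 0.13 and -0.35. DNA copy number was not measured in these files, and its part in these values was not tested.

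Transcript levels within the set spanned a wide range when compared per length of the representative transcript (CPM per kb, GENCODE models of GRCm38). Npm1 was highest at 654 ± 61.2 CPM per kb in WT (SD, n = 3), followed by Ncl at 520 ± 24.4, Nop58 at 281 ± 7.10, Srm at 261 ± 27.4, Mybbp1a at 260 ± 1.92 and Nhp2 at 222 ± 24.0. The median was 62.7, and the lowest were Polr1a at 19.7 ± 1.09, Noc3l at 19.3 ± 0.72, Polr1e at 15.9 ± 0.60 and Wdr12 at 11.0 ± 0.84 CPM per kb. Neighbours in this order differed by more than the sum of their SDs in 17 of 44 steps and not in the other 27, so Srm and Mybbp1a, for example, are not ordered. No gene changed rank by more than 5 places between WT and KO. The rank of Nop58 depends on the transcript model, since with the length of all its exons it fell from 3 to 26. Other ranks rest on the chosen models too. For Ncl both lengths were 8202 bases, so this comparison could not change its level per length. For Wdr12 they were 10012 and 10613 bases, nearly the same.

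**Figure D4:**
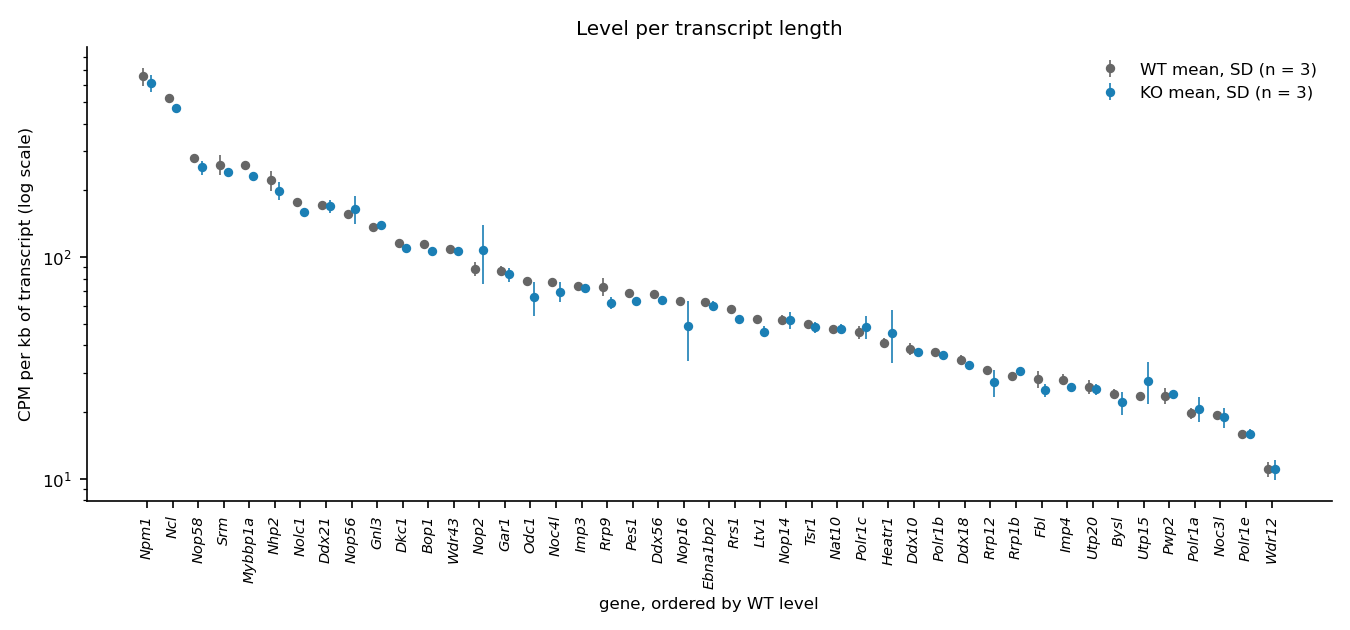
Level of the 45 genes in CPM per kb of representative transcript (log axis), as mean and SD of the 3 WT and the 3 KO lines. The order runs from Npm1 (654 in WT) to Wdr12 (11.0 in WT) and is nearly the same in both groups.

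Several genes of the set carry genes for snoRNAs, the guide RNAs of the same pathway, within their bounds. They lay in 8 of the 45 (17.8%), namely Dkc1, Gnl3, Ncl, Nop56, Nop58, Odc1, Tsr1 and Wdr43, with 22 snoRNA genes in all, against 1.91% of 9808 tested genes. Host genes and the others had the same median log2 fold change to 2 decimals, -0.08 in both. KO lines lay wholly below WT lines in 3 of the 8 hosts and 8 of the 37 others, against 8.68% of tested genes. In 13 genes exons overlap an exon of a gene on the opposite strand, among them Bysl with Ccnd3, Mybbp1a with Spns2 and Pes1 with 4930556J24Rik, and the strand setting of the counts is not given in the sources used here. Over the 32 genes without such overlap, 8 lay wholly lower in KO (background 8.68%) and the median was -0.08.

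Other genes of the pathway also lay mostly lower in KO. Of 124 tested genes in 6 further lists 92 had negative values (median -0.09), 20 had KO wholly below WT (16.1%, background 8.68%) and 8 wholly above (background 10.6%). edgeR called 0, with 12 lower and 1 higher at an unadjusted p under 0.05 (backgrounds 5.1% and 4.35%). DESeq2 called 2 of the 124 lower, Wdr46 and Pno1 (background 1.24%), and 1 higher, Ttf1 (background 0.705%). Both counts are near those shares. Ttf1, which ends transcription by RNA polymerase I, lay at 25.6, 24.7 and 24.5 CPM in WT and 34.5, 35.6 and 36.8 CPM in KO (0.50 ± 0.09, edgeR adjusted p = 0.479, DESeq2 adjusted p = 0.00043). Its KO lines all stood clear of its WT lines, against the direction of most of the pathway. Among the other RNA polymerase I machinery (15 tested, median -0.09) 4 genes were wholly lower (26.7%, background 8.68%). They include the shared polymerase subunits Polr2e (-0.29 ± 0.08) and Polr2h (-0.25 ± 0.10).

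The list of 35 other small subunit factors also holds the snoRNP-related proteins Nop10, Naf1 and Snu13. Of its genes 7 were wholly lower (20%, background 8.68%) and 1 wholly higher (background 10.6%), with a median of -0.09. Pno1, a late assembly factor of the small subunit, lay at 101, 108 and 105 CPM in WT and 88.5, 86.6 and 87.1 CPM in KO (-0.28 ± 0.06, edgeR adjusted p = 0.479, DESeq2 adjusted p = 0.0125). Wdr46, a scaffold of the early precursor, had -0.24 ± 0.06 (DESeq2 adjusted p = 0.0494), and Tbl3, of the same precursor, -0.18 ± 0.06 (edgeR adjusted p = 0.495). Of 44 other large subunit factors (median -0.03) 5 were wholly lower (11.4%, near the background of 8.68%) and 6 wholly higher (background 10.6%). The lowest p belonged to Nip7 (-0.25 ± 0.07), Wdr18 (-0.30 ± 0.08) and Mrto4 (-0.18 ± 0.07). The RNA exosome, which trims precursors (13 tested, median -0.12), had 1 wholly lower gene (7.69%, under the background), Exosc8 (-0.11 ± 0.05). RNase P and RNase MRP cut transfer and ribosomal RNA precursors (8 tested, median -0.08). A pair of their genes was wholly lower (25%, background 8.68%), Pop1 (-0.22 ± 0.10) and Pop4 (-0.10 ± 0.06). Of 9 other polyamine genes (median -0.10) the one wholly lower (11.1%, near the background of 8.68%) was Dohh (-0.26 ± 0.10), the enzyme that completes hypusine. None of these passed the edgeR test.

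**Figure D5:**
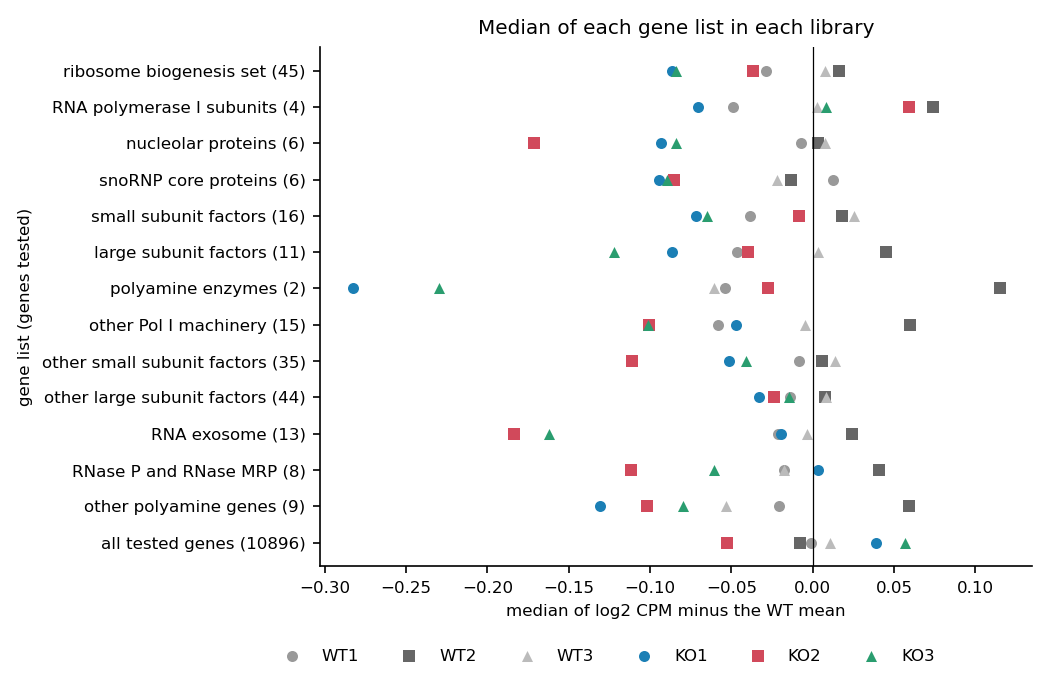
Median log2 CPM relative to the WT mean of each gene, by list and library, with all tested genes for comparison. The set's medians are -0.09, -0.04 and -0.08 in KO1, KO2 and KO3, where those of all tested genes are 0.04, -0.05 and 0.06. In KO2 the set does not lie under all tested genes.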

How the data were processed

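RNA of 6 BCR-ABL positive mouse cell lines, 3 WT and 3 KO by the labels, was sequenced from TruSeq libraries, per the labels' protocols. The authors deposited 1 table of whole-number counts per gene symbol, not normalized. Trim Galore, STAR, DESeq2 and the GRCm38 build are named in the submitters' processing notes, and their versions and roles, the counting program and the strandedness were not given in the sources used here. Total counts ran from 17859519 to 24108563. Of 25965 rows 66 repeat a symbol and 11635 are 0 throughout.

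The genes, lists and naming rule were chosen with earlier results of these data known. Values of all 6 libraries are given for genes with an unadjusted edgeR p under 0.05, the extremes and the highest level per length of each role, and genes with KO2 over 1.5-fold outside the other libraries. Of each further list, genes with non-overlapping groups and the smallest p, at most 3, are named. Heatr1, Polr1a, Rrp12, Dkc1, Pes1, Rrs1 and Rrp1b were added after their values had been seen. Groups were compared with edgeR 4.0.16 under R 4.3.3 (TMM, filterByExpr, robust quasi-likelihood F test, all 6 libraries, two-sided), with Benjamini-Hochberg adjustment over 10896 rows and a threshold of 0.05. The edgeR SEs were derived from that test, as the size of the log2 fold change over the square root of F. The 95% intervals were built from these SEs with t quantiles. CPM values use library totals, without TMM, and a prior count of 2 applies on the log2 scale. DESeq2 1.42.0 left the adjusted p empty for 14753 rows, and its background is over the other 11212. The tests were checked on simulated data, in which every changed gene differed by more than any gene of the set did here. That check does not cover differences of the size seen in the set.

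Alternatives were RLE factors, library totals, DESeq2, limma-voom (limma 3.58.1), other low-count filters, no robust estimates, the replicate block, and each library left out. WT2 and KO2 left out together, DESeq2 without KO2, TMM-scaled CPM for overlap and the 50-base window were chosen with values known. Deviations of WT and KO libraries with the same number from their group means correlated at 0.33, 0.64 and 0.46 across genes, above the criterion of 0.1. Libraries with different numbers passed it too, WT1 with KO3 at 0.41 and WT3 with KO1 at 0.36. The criterion therefore cannot show that the numbers pair the libraries. WT2 had -0.46 with KO1 and -0.58 with KO3, and KO2 had -0.45 with WT1 and -0.51 with WT3. WT2 and KO2 thus deviated alike, and opposite to the other lines. Deviations within a group sum to 0, so these values are not independent. The block was used as an alternative only, and the main fit has none. What a number stands for is not in the labels.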

Additional observations from a re-analysis of the deposited data

How the results depend on the processing

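The count of called genes and the medians were recomputed under each alternative. edgeR called 0 genes of the set, 0 of the other pathway lists and 0 overall under every scaling, filter and left-out library tried, and limma-voom likewise. DESeq2 called 218 genes (1.94% of those with an adjusted p), 1 of the set and 3 of the further lists. With KO2 left out DESeq2 called 684 (5.95%), 4 and 3, and with WT2 and KO2 left out 340 (2.89%) and 1 of the set. The replicate block changed no adjusted call (0 genes, set median -0.083, Cdk6 0.086), and at the unadjusted threshold it took the set from 6 genes to 1. Over left-out libraries that count of lower genes ran from 0 (without WT3) to 14 (without KO2).

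Cdk6 ran from -0.22 to 0.31 over left-out libraries. It was -0.22 with KO2 left out (DESeq2 -0.23), and with WT2 and KO2 left out -0.24 (DESeq2 -0.25). Without KO2 the signs of Gnl3 (-0.038, DESeq2 -0.040), Utp15 (-0.0055, DESeq2 -0.0065), Nop2 (-0.033, DESeq2 -0.034), Heatr1 (-0.14, DESeq2 -0.14), Polr1a (-0.087, DESeq2 -0.088) and Pwp2 (-0.018, DESeq2 -0.019) turned negative, and with WT2 out too Gnl3 had -0.033 (DESeq2 -0.034), Heatr1 -0.094 (DESeq2 -0.095) and Polr1a -0.035 (DESeq2 -0.036). Polr1c had -0.017 without KO3. Over left-out libraries Polr1c ran up to 0.14, Gnl3 to 0.046, Utp15 to 0.34 and Nop2 to 0.40.

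Genes of the set with KO wholly below WT numbered 11 to 21 over left-out libraries. There were 17 without WT1 (10.8% of all genes tested in that fit), 21 without KO2 (16%) and 26 without WT2 and KO2 (21.4%). Those wholly above numbered 1 to 3 over left-out libraries. There were 3 without KO1 (15.9% of all genes tested in that fit), 2 without KO2 (26.4%) and 2 without WT2 and KO2 (32.8%). With RLE or TMM-scaled CPM there were 0 (9.23% and 8.58%). The background also rises as libraries are left out (8.68% to 21.4% below).

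Over left-out libraries the set's median ran from -0.13 to -0.056 and was -0.12 without WT2 and KO2 (DESeq2 -0.12, and -0.13 with only KO2 out). By role the ranges were -0.078 to 0.077 for RNA polymerase I subunits, -0.16 to -0.096 for nucleolar proteins, -0.13 to -0.078 for snoRNP proteins, -0.12 to -0.039 for small and -0.15 to -0.055 for large subunit factors. Of the further lists they were -0.13 to -0.013 for RNA polymerase I machinery, -0.058 to -0.015 for large subunit factors and -0.15 to -0.071 for polyamine genes. snoRNP proteins had -0.11 with library totals and -0.15 without WT2 and KO2 (DESeq2 -0.15). Small subunit factors had -0.11 without WT2 and KO2 (DESeq2 -0.11) and -0.12 in DESeq2 without KO2, where RNA polymerase I subunits had -0.079 and large subunit factors -0.15. Other large subunit factors had -0.013 with library totals, -0.058 without WT2 and KO2 (DESeq2 -0.060) and -0.059 in DESeq2 without KO2, and other polyamine genes -0.16 in each of these 3 fits. The cause of these shifts was not tested. With 3 lines a group and 95% intervals that reach a median of 0.21 to either side, single differences of the size seen here are at the edge of what can be measured.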

Other observations

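Nsd1, which encodes a histone methyltransferase, lies 0.626 Mb from Nop16 on chromosome 13 and did not follow the genes around it. Its level was 15.3, 12.6 and 8.10 CPM in the 3 WT lines, 0.336 CPM in KO1, 38.5 CPM in KO2 and 0.049 CPM in KO3. It was thus near 0 in KO1 and KO3 and highest in KO2, while its neighbours were low in KO2, and its edgeR log2 fold change was 0.14 ± 1.86 (adjusted p = 0.985). The gene was chosen after its values had been seen.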
